A study of Rattus norvegicus with 6 samples.

Results

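The Kruppel-like factors are transcription factors that bind GC-rich and CACCC sequences through zinc fingers at their C-terminal end, and 10 of their genes, Klf2, Klf3, Klf4, Klf6, Klf7, Klf9, Klf10, Klf13, Klf15 and Klf16, were followed in the rat amygdala after acute ethanol. The 10 genes were taken by their symbols from the 38445 genes of the count files, and all 10 were found and passed the filter on low counts. The list was chosen from earlier results of these same libraries, with the levels and the differences between ethanol and control already known and no threshold stated, so the values of the 10 genes are given as a description and carry no test. Libraries were made from the amygdala of adult male Sprague Dawley rats, the strain and wild type that both groups shared, 1 h after an intraperitoneal injection of saline (control) or of ethanol at a dose of 1 g/kg (acute ethanol). Each library held RNA from 2 rats, so each group had 3 libraries, and the dissection took in the central, medial and basolateral nuclei together.

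Members of this family differ in what they recruit and in what induces them. Klf9 and Klf15 are well known as direct targets of the glucocorticoid receptor, and Klf9 is also induced by thyroid hormone in neurons. Klf9, Klf13 and Klf16 form 1 branch that represses genes through the corepressor Sin3a, Klf10 is induced by transforming growth factor beta, Klf3 represses through C-terminal binding proteins, Klf2 and Klf4 are prominent in the endothelium, and Klf4, Klf6 and Klf7 are known for their opposing parts in axon growth.

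Promoter sequences are shown for Klf9 and Klf15, which lay among the 3 largest differences, and for Klf6, which had nearly the same level in both groups. RefSeq promoters of the GRCr8 build, which is later than the Rnor_6.0 build of the counts, were matched for 6 of the 10 genes (Klf3, Klf4, Klf6, Klf7, Klf9 and Klf15), and the 250 bases before the annotated start were searched. For Klf15 that window lies within the span of the gene in the same reference, downstream of another annotated start, and only the 30 bases around each match are given. Capitals mark TGACG or its reverse complement CGTCA, the half-site of the cyclic AMP response element.
Klf9 (chr1:230126396-230126645, + strand): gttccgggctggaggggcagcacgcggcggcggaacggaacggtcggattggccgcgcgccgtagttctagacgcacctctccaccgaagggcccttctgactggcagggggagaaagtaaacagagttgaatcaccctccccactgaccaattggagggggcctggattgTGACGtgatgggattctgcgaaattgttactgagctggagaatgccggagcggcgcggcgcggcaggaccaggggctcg
Klf15 (chr4:124522827-124522856, + strand): gggcgcggctcgTGACGtgcagcgctagcc
Klf15 (chr4:124522899-124522928, + strand): cggcgcccgcggCGTCAcgtgagcggtcgg
Klf6 (chr17:69458479-69458728, - strand): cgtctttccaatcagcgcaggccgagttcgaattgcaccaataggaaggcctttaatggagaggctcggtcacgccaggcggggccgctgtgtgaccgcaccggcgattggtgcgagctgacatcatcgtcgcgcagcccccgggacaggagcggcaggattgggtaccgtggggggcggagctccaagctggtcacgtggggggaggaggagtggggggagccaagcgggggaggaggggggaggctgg

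The half-site lay 79 bases before the start of Klf9 and 176 and 104 bases before the start of Klf15, and the windows of Klf3, Klf4, Klf6 and Klf7 did not hold these letters. Among 33469 rat promoters of the same length, 18.2% held the half-site on either strand. The second Klf15 match overlapped an E-box (CACGTG), the letters bound by clock and other basic helix-loop-helix factors, which 5.59% of promoters held and which was also present 56 bases before Klf6. The palindromic glucocorticoid response element and its half-site TGTTCT, searched on both strands as were all these motifs, were in none of the 6 windows, against 0.012% and 17.5% of all promoters. CACCC, the letters that Kruppel-like factors bind, was found in the windows of Klf3, Klf7, Klf9 and Klf15 and in 49.2% of all promoters. GGGCGG, the GC box, was found in those of Klf6 and Klf7 and in 30.5% of all, and TATAAA in that of Klf4 and in 12.9% of all. The full response element TGACGTCA was in none of the 6 and in 1.59% of all. These matches describe the letters only, and their relation to the differences after ethanol was not tested. The promoters shown were picked by those differences. Klf2, whose difference was larger than that of Klf15, had no matched promoter.

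The libraries held from 62576504 to 70755739 counts in genes, and with 3 libraries per group the differences between libraries limit the precision more than the counting does. The libraries differed in cell types that the dissection can include. The summed level of 7 choroid plexus markers, in CPM (counts of a gene relative to the TMM-scaled size of its library), was 505 to 1090 in controls and 11.2, 12.2 and 468 in ethanol replicates 1, 2 and 3, and its defining gene Ttr reached 4.34 CPM at the lowest. Otx2, another choroid plexus gene of the list, was at 0 in 5 libraries. The sum of 6 oligodendrocyte markers ran from 3550 to 8380 CPM in controls and from 4350 to 9720 CPM after ethanol, highest in ethanol replicate 3. The amygdala genes Prkcd, Ppp1r1b, Rspo2 and Neurod6 were at 7.37 CPM or more in every library. Ethanol replicate 3 also had the lowest Neurod6 (11 CPM), a pallial neuron gene, and the highest Sim1 (12.8 CPM, at most 3.47 CPM elsewhere), a gene of the medial amygdala and hypothalamus. Prkcd, Rspo2, Sim1 and Otx2 were named after their values were seen. Because ethanol replicate 3 differed in these genes, the log2 ratio of each Kruppel-like gene is also given without this library. The ethanol libraries then left are those with choroid plexus sums of 11.2 and 12.2 CPM, against 505 to 1090 CPM in controls. Choroid plexus content and ethanol therefore cannot be told apart in that refit. With all libraries kept, every ethanol sum was also below every control sum, so they cannot be told apart there either.

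Ordered by level per length, in CPM per kb of counted exon averaged over the 6 libraries, Klf16 (35.8) and Klf9 (30.2) stood at the top, followed by Klf13 (11.9), Klf10 (9.22), Klf6 (8.91), Klf2 (6.87), Klf7 (6.41), Klf3 (6.21), Klf15 (5.86) and Klf4 (3.59). The most abundant gene was thus 9.99 times as high as the least abundant. Among neighbours in this order, 2 steps separated all 6 libraries of both genes, from Klf9 to Klf13 and from Klf15 to Klf4, while the ranges of the other 7 pairs overlapped. Klf16 was above Klf9 in 5 libraries, with ethanol replicate 3 as the exception, and Klf10 was above Klf6 in 3 of 6. The counted exons of Klf13 cover only 602 bases, the shortest of the 10, and its place in the order depends on that gene model. Of the genes tested, 87.6% had a lower level per kb than Klf16 and 43.6% a lower one than Klf4. No exon of the 10 genes overlapped another gene on either strand.

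**Figure D1:**
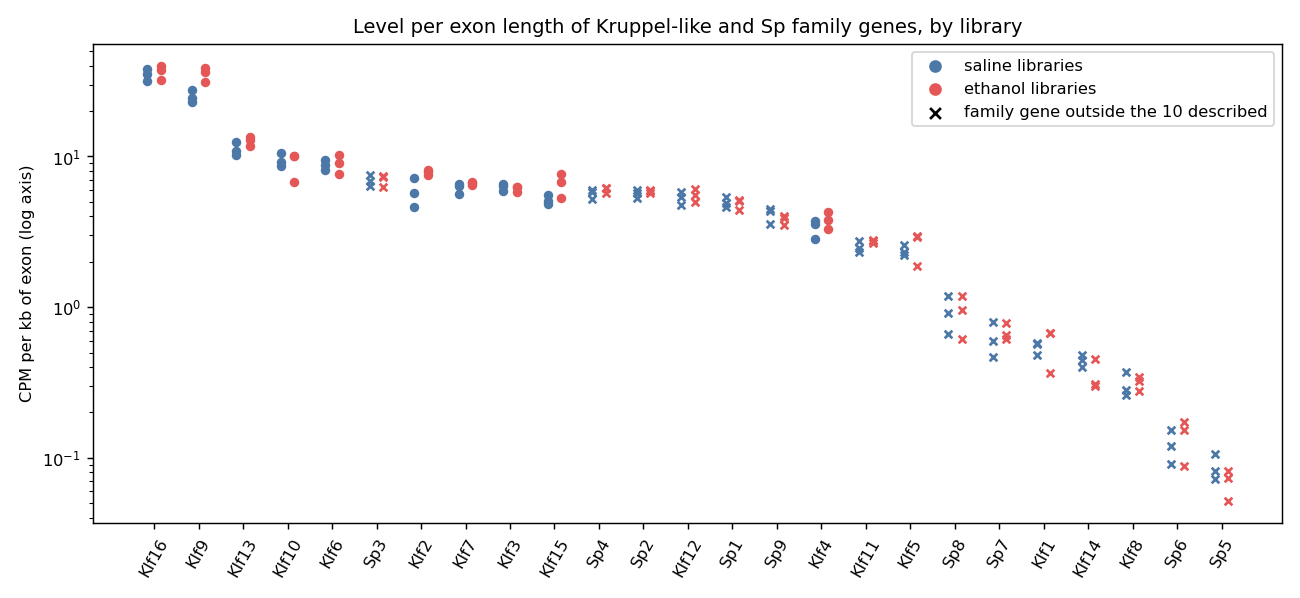
Level of 25 Kruppel-like and Sp family genes in CPM per kb of exon on a log axis, one point per library, with controls (saline) in blue and ethanol in red. Circles are the 10 genes described here and crosses the other 15 family genes that passed the filter. Klf16 and Klf9 lie above all the others, and Sp5 lies lowest.

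Differences are given as log2FC, the log2 ratio of ethanol over control, with its standard error (SE). Ethanol libraries were on average higher for 8 of the 10 genes (log2FC above 0), where 52.6% of the 18141 genes tested were higher, and scaled by library size alone 7 of 10 were higher, Klf6 moving to -0.01, against 41.7% of all genes. The median log2 fold change of the 10 was 0.13, from -0.06 for Klf10 to 0.50 for Klf9, and that of all genes tested was 0.006. In 2 of the 10, Klf9 and Klf2, all ethanol libraries lay above all control libraries, and in 0 all lay below; over all genes tested these shares were 3.66% and 5.19%. By the quasi-likelihood test of edgeR, 0 of the 18141 genes (0%) passed the study's threshold, a Benjamini-Hochberg adjusted p under 0.2, while 752 of all genes had an unadjusted p under 0.05. The paper's own fit did report genes at an FDR under 0.2. Here the likelihood ratio test of edgeR passed 77 genes (0.424%), DESeq2 81 genes (0.409%) and limma-voom 0. These are counts over all genes, and no test is drawn from them for the 10, whose list was drawn up with this contrast known. Without ethanol replicate 3, 10 of 10 were higher after ethanol, with Klf3 at 0.00 after rounding, against 48.9% of all genes. Leaving out any other single library gave 7 or 8 of 10, against 50.5% to 53.3% of all genes.

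**Figure D2:**
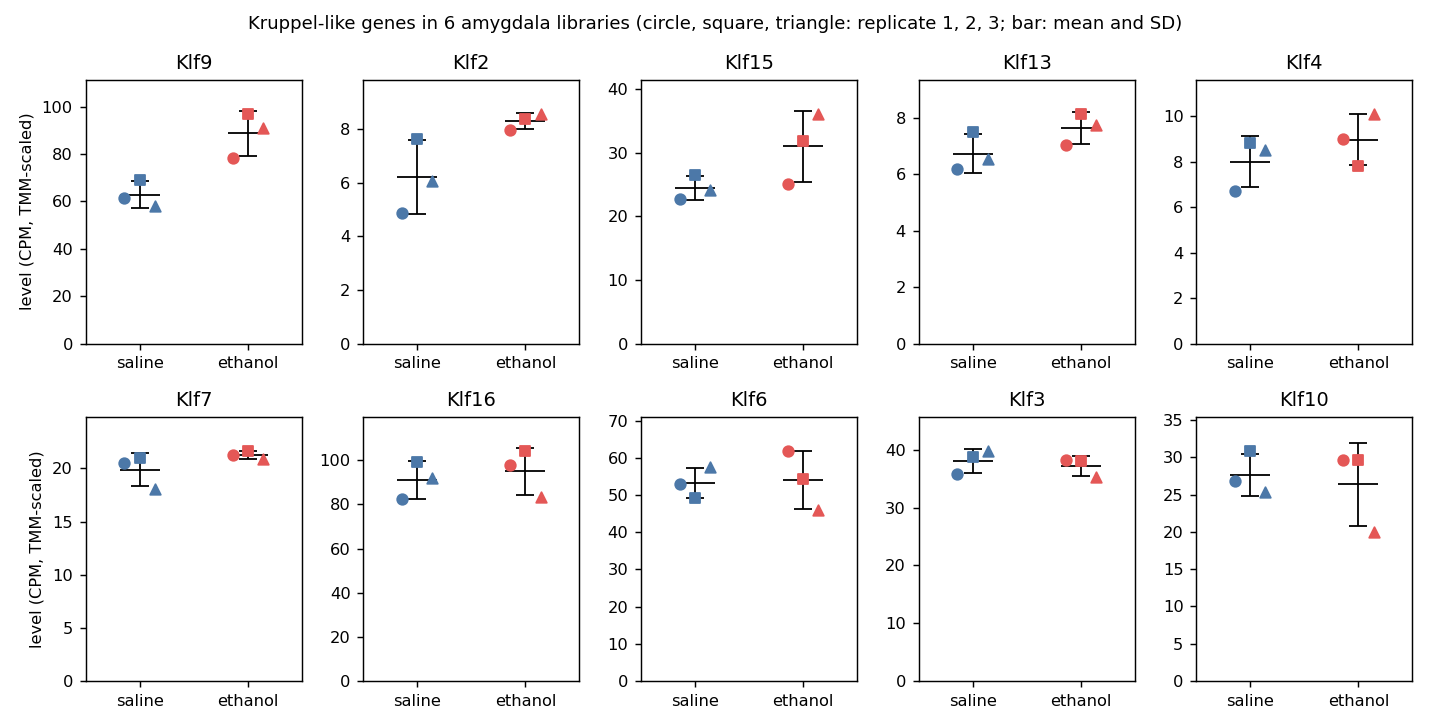
Level of each of the 10 Kruppel-like genes in CPM, each panel starting at 0, with controls (saline, blue) and ethanol (red); symbols mark replicate numbers and the bars the mean and SD of 3 libraries. For Klf9 and Klf2 the groups did not overlap, and for Klf15 ethanol replicate 1, at 25.1 CPM, lay within the control range.

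Klf9 had the largest difference of the 10. Its 2 exonic blocks span 240908483 to 240933198 of chromosome 1 (+ strand, Rnor_6.0, as all gene positions here). Its level was 61.5, 69.2 and 57.9 CPM in the control libraries and 78.3, 96.8 and 91.1 CPM in the ethanol libraries. The lowest ethanol library stood 9.09 CPM above the highest control. The means were 62.9 ± 5.77 CPM (mean ± SD, n = 3) and 88.7 ± 9.47 CPM (mean ± SD, n = 3), log2FC 0.50 ± 0.10 (SE), or 41.1% more. Whichever library was left out, the value stayed between 0.43 and 0.58, and it was 0.48 without ethanol replicate 3. On the log2 scale, ethanol replicates 1, 2 and 3 were 0.32, 0.63 and 0.54 above the control mean, so replicate 1 was the smallest.

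Klf13 and Klf16, the relatives of Klf9 in the Sin3a-binding branch, had smaller differences. Klf13 (chromosome 1, 124772596 to 124803363) was at 6.18, 7.49 and 6.53 CPM in controls and 7.03, 8.13 and 7.74 CPM after ethanol, log2FC 0.18 ± 0.11 (SE). Only ethanol replicate 1 lay below the highest control, which was replicate 2. The value was 0.11 without control replicate 1, 0.27 without control replicate 2 and 0.17 without ethanol replicate 3. Klf16 (chromosome 7, 12006710 to 12016529) was at 82.4, 99.4 and 91.8 CPM in controls and 97.8, 104 and 83.2 CPM after ethanol, log2FC 0.06 ± 0.10 (SE). Its ethanol replicate 3 lay near the lowest control, and the groups overlapped. Without that library the value was 0.15, without control replicate 2 it was 0.13, and without control replicate 1 or ethanol replicate 2 it turned to -0.02 and -0.01. Klf10 (chromosome 7, 77156010 to 77162096), a gene that also represses through Sin3a, was at 26.8, 30.8 and 25.3 CPM in controls and 29.6, 29.7 and 20 CPM after ethanol. Its log2FC of -0.06 ± 0.16 (SE) turned to 0.10 without its lowest library, ethanol replicate 3, and to 0.02 without its highest, control replicate 2, and reached -0.16 without ethanol replicate 2.

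Klf15, which in liver and muscle controls the breakdown of branched-chain amino acids, showed an uneven difference. It lies on chromosome 4 from 122364688 to 122377690 on the + strand, with 6 exonic blocks. Its level was 22.8, 26.5 and 24.1 CPM in controls and 25.1, 31.9 and 36.1 CPM after ethanol, log2FC 0.34 ± 0.13 (SE). Ethanol replicates 2 and 3 stood above every control, whereas replicate 1 was below control replicate 2. The coefficient of variation was 7.55% among controls and 17.9% among ethanol libraries. Without ethanol replicate 1 the log2 fold change was 0.48 and without replicate 3 it was 0.22. Replicate 1 was the lowest ethanol library for Klf2, Klf9, Klf13 and Klf15 alike.

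Klf2 and Klf4 are the endothelial members. Klf2 (chromosome 16, 19223087 to 19225037, - strand, 3 exonic blocks) is a flow-induced factor of the vessel wall and a quiescence factor of lymphocytes. Its level was 4.89, 7.64 and 6.07 CPM in controls and 7.96, 8.38 and 8.56 CPM after ethanol, or 6.20 ± 1.38 CPM (mean ± SD, n = 3) against 8.30 ± 0.307 CPM (mean ± SD, n = 3). The groups did not overlap, with a gap of 0.317 CPM between control replicate 2 and ethanol replicate 1. The log2FC was 0.42 ± 0.16 (SE) and depended on the controls, being 0.27 without replicate 1, the lowest, and 0.60 without replicate 2, whereas it was 0.40 without ethanol replicate 3. Klf4 (chromosome 5, 72283311 to 72287669) was at 6.73, 8.81 and 8.50 CPM in controls and 9.02, 7.82 and 10.1 CPM after ethanol, log2FC 0.16 ± 0.14 (SE). Again control replicate 1 was the lowest library, and the groups overlapped. The value was 0.04 without that control, 0.07 without ethanol replicate 3, 0.24 without control replicate 2 and 0.25 without ethanol replicate 2. In bulk tissue, fewer cells of a type and less RNA per cell cannot be told apart, and the endothelial markers are given for that reason. Of 7 tested, 0 had groups that did not overlap, against 3.66% (higher) and 5.19% (lower) of all genes. The log2 fold changes of the 7 ran from -0.09 to 0.08. The sum of the 7 was 234 to 262 CPM in controls and 232 to 262 CPM after ethanol. The endothelial junction gene Cldn5 was at 50 ± 2.55 CPM (mean ± SD, n = 3) and 51.9 ± 2.26 CPM (mean ± SD, n = 3) and the transporter gene Slco1a4 at 59.5 ± 6.59 CPM (mean ± SD, n = 3) and 56.4 ± 3.30 CPM (mean ± SD, n = 3).

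Klf6, Klf7 and Klf3 had group means within 0.10 of each other on the log2 scale. Klf6 (chromosome 17, 67887939 to 67945052), which promotes axon growth, was at 52.9, 49.2 and 57.4 CPM in controls and 61.7, 54.2 and 46.1 CPM after ethanol, log2FC 0.02 ± 0.11 (SE). The ethanol libraries held both its highest and its lowest value. Leaving out ethanol replicate 3 gave 0.13, leaving out control replicate 3 gave 0.08, and leaving out ethanol replicate 1 or control replicate 2 turned the value to -0.08 and -0.03. Klf7 (chromosome 9, 70740480 to 70787913), a growth-promoting relative of Klf6, was at 20.5, 21 and 18.1 CPM in controls and 21.3, 21.6 and 20.9 CPM after ethanol. Its log2FC was 0.10 ± 0.08 (SE), and 1 control, replicate 2, reached above the lowest ethanol library. It was 0.03 without control replicate 3, the lowest, and 0.11 without ethanol replicate 3. Klf3 (chromosome 14, 45142769 to 45173753) had the smallest standard error of the 10 and was at 35.8, 38.8 and 39.7 CPM in controls and 38.3, 38.1 and 35.2 CPM after ethanol, log2FC -0.04 ± 0.07 (SE). Leaving out 1 library gave -0.09 (control replicate 1) to 0.00 (ethanol replicate 3).

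**Figure D3:**
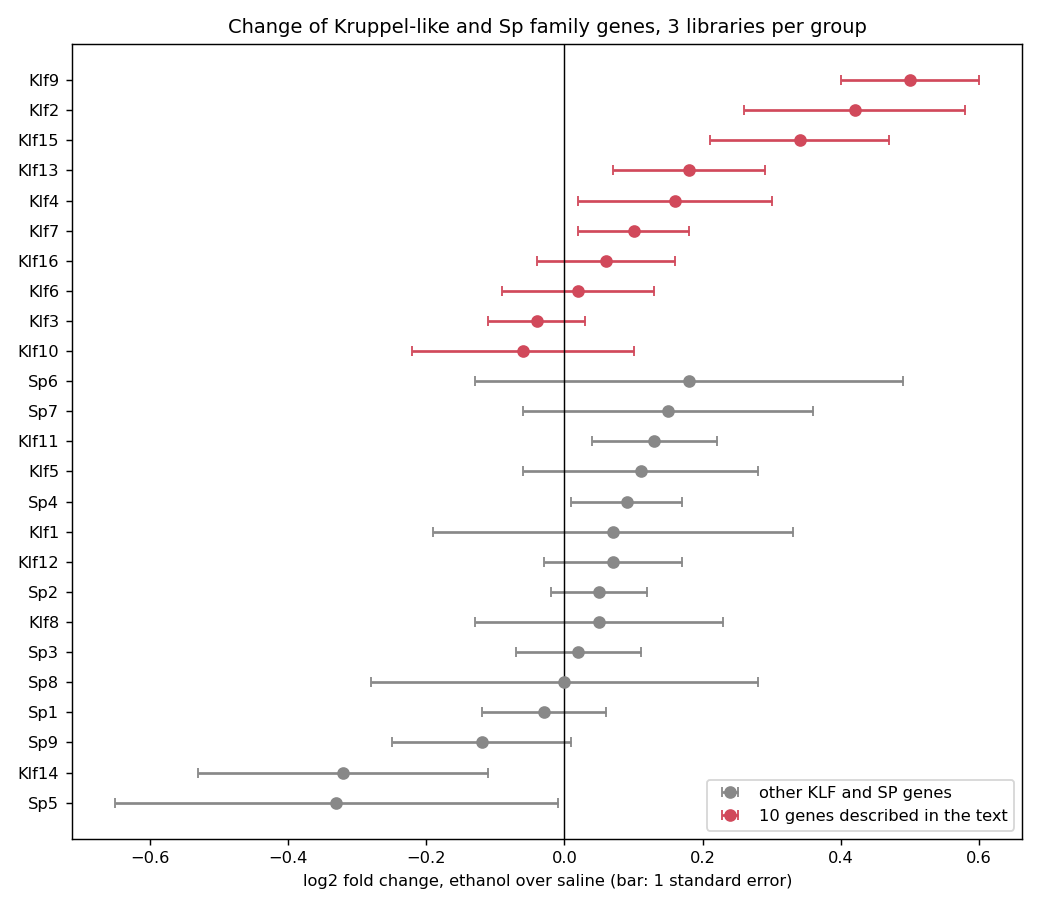
Log2 fold change of ethanol over control (saline) for the 10 genes described (red) and 15 other Kruppel-like and Sp genes (grey), with bars of 1 standard error from edgeR's quasi-likelihood fit. Klf9 (0.50), Klf2 (0.42) and Klf15 (0.34) lie to the right of all the other genes, and Sp5 (-0.33) and Klf14 (-0.32) farthest to the left.

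The 10 genes ordered the libraries in different ways. The highest library was an ethanol one for 8 of the 10 and the lowest a control one for 7. Of those 7, 5 were lowest in control replicate 1 (Klf2, Klf4, Klf13, Klf15 and Klf16). No shares over all genes are given for these counts, which only describe the 10 genes. The median log2 difference of the 10 genes from their control means was 0.106, 0.157 and 0.14 in ethanol replicates 1, 2 and 3, and -0.092, 0.135 and -0.013 in control replicates 1, 2 and 3. Control replicate 2 therefore stood about as high as an ethanol library in this median. Ethanol replicate 3 split the genes, with log2 differences of 0.57 for Klf15, 0.54 for Klf9, 0.49 for Klf2 and 0.34 for Klf4, and of -0.46 for Klf10, -0.20 for Klf6, -0.13 for Klf16 and -0.11 for Klf3. The summed level of the choroid plexus markers was at -6.20, -6.08 and -0.82 on the same scale in ethanol replicates 1, 2 and 3. Klf2 and Klf15 had the same order of these libraries, lowest in replicate 1 and highest in replicate 3, and Klf9 was highest in replicate 2. The oligodendrocyte sum, at -0.45, 0.02 and 0.71, and the ependymal and ciliary sum, at -0.68, -0.61 and -0.08, had that order too, and the astrocyte sum was at -0.06, -0.06 and 0.33. In control replicates 1, 2 and 3, Klf2 was at -0.32, 0.32 and -0.01 and Klf15 at -0.1, 0.12 and -0.02. The choroid plexus sum had the same order as both genes there, at -0.71, 0.4 and 0.09. The oligodendrocyte sum had the reverse order there, at 0.5, -0.74 and -0.02, and the ependymal and ciliary sum was at -0.21, 0.09 and 0.09. The part of these markers in the values of the 10 genes was not tested.

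**Figure D4:**
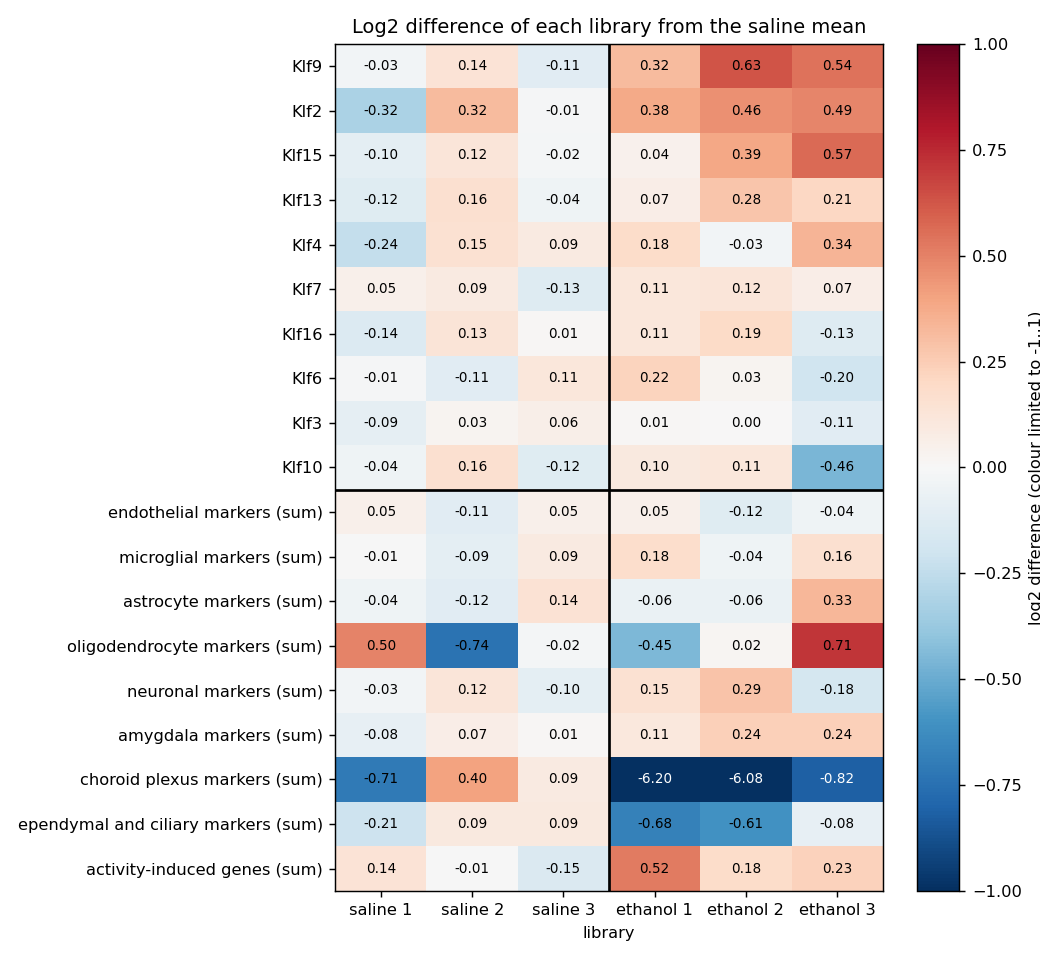
Log2 difference of each library from the control (saline) mean for the 10 genes, ordered by log2 fold change, and below the line for the summed CPM of the marker lists and of 10 activity-induced genes. Klf9, Klf2, Klf15, Klf13 and Klf7 are above 0 in all ethanol libraries. Klf10 is at -0.46 in ethanol replicate 3, and the choroid plexus sum is at -6.20 and -6.08 in ethanol replicates 1 and 2.

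Outside the 10, the family list held 17 genes, of which 16 were matched and 15 passed the filter on low counts. Of the 15, 0 passed an adjusted p of 0.2 by edgeR's quasi-likelihood test, 0 by its likelihood ratio test and 0 by DESeq2. By the quasi-likelihood test 0 had an unadjusted p below 0.05, where 1.57% of genes were higher and 2.57% lower. Groups did not overlap for 0 of the 15, against 3.66% (higher) and 5.19% (lower) of all genes. The median log2 fold change of the 15 was 0.05, from -0.33 to 0.18. Klf11, the closest relative of Klf10, was at 11 ± 0.931 CPM (mean ± SD, n = 3) in controls and 12 ± 0.283 CPM (mean ± SD, n = 3) after ethanol, log2FC 0.13 ± 0.09 (SE). Klf12, a repressor that like Klf3 binds C-terminal binding proteins, was at 70.9 ± 7.06 CPM (mean ± SD, n = 3) and 74.4 ± 7.21 CPM (mean ± SD, n = 3), and its relative Klf8 at 1.72 ± 0.317 CPM (mean ± SD, n = 3) and 1.79 ± 0.201 CPM (mean ± SD, n = 3). Klf5 was at 8.10 ± 0.650 CPM (mean ± SD, n = 3) and 8.77 ± 2.05 CPM (mean ± SD, n = 3). The erythroid factor Klf1 reached at most 1.10 CPM, and Klf17 had 0 counts in all 6, which allows up to 0.0473 CPM (3 counts in the shallowest library, counting error only).

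The Sp genes, whose products share the zinc fingers and GC-box binding of the Kruppel-like factors, had log2FC between -0.33 and 0.18, and their groups overlapped. Sp3 and Sp4 had the highest levels per kb among the 15, 6.96 and 5.85 CPM per kb. Sp3 was at 27.9 ± 2.43 CPM (mean ± SD, n = 3) in controls and 28.2 ± 2.51 CPM (mean ± SD, n = 3) after ethanol, and Sp4 at 19.7 ± 1.39 CPM (mean ± SD, n = 3) and 21 ± 1.01 CPM (mean ± SD, n = 3). Sp1, the founding member, was at 38.5 ± 2.88 CPM (mean ± SD, n = 3) and 37.6 ± 3.22 CPM (mean ± SD, n = 3), and Sp2 at 18.8 ± 1.19 CPM (mean ± SD, n = 3) and 19.6 ± 0.528 CPM (mean ± SD, n = 3). The forebrain factors Sp8 and Sp9, which specify GABA neurons in development, were at 3.36 and 6.15 CPM in controls and 3.34 and 5.67 CPM after ethanol, with log2 fold changes of 0.00 (standard error 0.28) and -0.12 (standard error 0.13). Sp7, the bone factor, had log2FC 0.15 ± 0.21 (SE). Sp5, Sp6 and Klf14 were rare, with control means of 0.184, 0.427 and 1.29 CPM, and their log2 fold changes of -0.33, 0.18 and -0.32 had standard errors of 0.32, 0.31 and 0.21.

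Cofactors that Kruppel-like proteins recruit, or that mark them for degradation, were looked at as a list of 12 genes, all tested. Of these, 0 passed an adjusted p of 0.2 by edgeR's quasi-likelihood test, 1 had an unadjusted p below 0.05 and was lower after ethanol (2.57% of all genes), 1 had groups that did not overlap, lower (5.19% of all genes), and the median log2 fold change was 0.01. The gene was Ctbp2, a corepressor that Klf3 binds, at 52.2, 58.0 and 54.4 CPM in controls and 48.8, 48.1 and 45.4 CPM after ethanol, with log2FC -0.21 ± 0.06 (SE) and an edgeR quasi-likelihood adjusted p of 1.0. All its ethanol libraries lay below all its controls. The related Ctbp1 was at 238 ± 4.18 CPM (mean ± SD, n = 3) and 245 ± 11 CPM (mean ± SD, n = 3), and Sin3b, of the complex that Klf9 and Klf10 recruit, at 70.7 ± 4.35 CPM (mean ± SD, n = 3) and 69.8 ± 3.10 CPM (mean ± SD, n = 3).

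Among 12 regulators known to act upstream of Kruppel-like genes, 11 were tested, 0 passed an adjusted p of 0.2 and 1 had an unadjusted p below 0.05, in the higher direction (1.57% of all genes), by the edgeR quasi-likelihood test, and 1 had groups that did not overlap, higher (3.66% of all genes). That gene was Mef2d, of the family through which the kinase Mapk7 induces Klf2 and Klf4, at 206, 208 and 200 CPM in controls and 244, 234 and 211 CPM after ethanol, with log2FC 0.17 ± 0.07 (SE) and an edgeR quasi-likelihood adjusted p of 1.0. Mef2c was at 268 ± 25.7 CPM (mean ± SD, n = 3) and 318 ± 75.6 CPM (mean ± SD, n = 3), and Thra, the thyroid hormone receptor, at 615 ± 48.6 CPM (mean ± SD, n = 3) and 615 ± 65.2 CPM (mean ± SD, n = 3). The glucocorticoid receptor gene Nr3c1, named here after its values were seen, had log2FC -0.02 ± 0.08 (SE). Mapk7 itself was listed at 0 in all libraries. Reads with several alignments or several genes were left out of the counts, so this 0 does not show absence.

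Known targets of the family gave 12 tested genes, of which, in the same edgeR test, 0 passed an adjusted p of 0.2, 2 had an unadjusted p below 0.05 and were higher after ethanol (1.57% of all genes), and 1 had groups that did not overlap, higher (3.66% of all genes). The last was Per1, a clock gene and glucocorticoid target, at 60.4, 68.4 and 51.8 CPM in controls and 68.5, 82.4 and 72.6 CPM after ethanol, with log2FC 0.31 ± 0.11 (SE) and an edgeR quasi-likelihood adjusted p of 1.0. The groups were separated only narrowly, at control replicate 2 and ethanol replicate 1. The other was the cell cycle inhibitor Cdkn1a, named after its values were seen, log2FC 0.44 ± 0.19 (SE). Its ethanol replicates 1, 2 and 3 stood at 10.4, 14.0 and 18.2 CPM, and its controls at 11, 9.87 and 10.5 CPM. The other named targets, the axon genes Gap43 and L1cam, had log2 fold changes of 0.07 and 0.03. Of the targets tied to single members, Nos3 and Thbd for Klf2 and Prodh and Bcat2 for Klf15, also named after their values were seen, log2 fold changes were -0.07, -0.11, 0.02 and -0.08.

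Because several Kruppel-like genes respond quickly to neuronal activity, 10 activity-induced genes were set beside them. All 10 had a log2 fold change above 0 (52.6% of all genes), with a median of 0.32, from 0.12 to 0.41, 0 passed an adjusted p of 0.2 by the edgeR quasi-likelihood test, 3 had an unadjusted p below 0.05, all higher (1.57% of all genes), and 2 had groups that did not overlap, higher (3.66% of all genes). Egr1 was at 56.4, 51.5 and 45.1 CPM in controls and 69.6, 59.4 and 64.3 CPM after ethanol, and Btg2 at 20.8, 26.0 and 20.9 CPM and 34.3, 29.4 and 26.5 CPM, log2 fold changes of 0.34 and 0.41 (standard errors 0.10 and 0.12). For both genes, and for Junb (log2FC 0.32 ± 0.11, SE), ethanol replicate 1 was the highest library. Of the rest of the list, named after their values were seen, Fos, Fosb, Egr2, Arc and Nr4a1 were highest there too. Ier2 was highest in ethanol replicate 3 (6.62 CPM) and Npas4 in control replicate 3 (8.59 CPM). Among the Kruppel-like genes, Klf6 was highest in ethanol replicate 1 (61.7 CPM), and Klf2, Klf9, Klf13 and Klf15 had their lowest ethanol value there. The relation between these orders was not tested. Summed over the 10 activity-induced genes, the level was 208 to 253 CPM in controls and 261 to 329 CPM after ethanol.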

How the data were processed

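Amygdala RNA of male rats was sequenced in 6 libraries, 3 per group, each a pool of 2 rats. The authors deposited raw counts per gene and library: single-end reads of 100 nt from a stranded mRNA kit, trimmed, aligned with STAR 2.7.0f (submitters' processing notes) and counted over exons with featureCounts 1.6.3 (strand setting 2) on the Rnor_6.0 annotation, leaving out reads with several alignments or several genes. Symbols were matched by NCBI gene ID for 29322 of 38445 genes. The groups come from the sample titles. Labels do not say whether the rats of a group were handled on separate days, so p-values measure the spread between these pools, which may be partly technical. Within each group, pairs of libraries exceeded counting noise (chi-square per degree of freedom 14.3 to 67.6).

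In R 4.3.3, edgeR 4.0.16 kept 18141 genes (filterByExpr, minimum 10 counts, 15 in total), scaled by TMM and compared the groups by the quasi-likelihood F test, adjusting p over all genes by Benjamini-Hochberg. The standard error is the absolute log2 fold change divided by the square root of F. log2 CPM carries a prior count of 2. Counting alone sets a floor of 3 counts (0.0422 to 0.0473 CPM). The script was tested on simulated data. DESeq2 1.42.0, limma-voom (limma 3.58.1) and other settings were alternatives.

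The members and lists were chosen with earlier results of these data known. Named are all 10 members, every tested family gene, and of each other list the 2 genes highest per kb and up to 4 whose groups did not overlap, except where the text says a gene was named after its values were seen. Klf18, Tac2 and Ccdc153 matched no symbol. The value of 1 gene that this rule names is not reported here.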

Additional observations from a re-analysis of the deposited data

How the results depend on the processing

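Genes passing an adjusted p of 0.2 numbered 0 with edgeR's quasi-likelihood test, 77 with its likelihood ratio test, 81 with DESeq2 and 0 with limma-voom, RLE scaling, library size alone, no filter on low counts and the replicate block. With each library left out in turn it ran from 0 to 83, with 83 without ethanol replicate 3 and 4 without ethanol replicate 1. The number of the 10 Kruppel-like genes whose groups did not overlap was 2 under every scaling, filter and block, where 7.83% to 9.33% of all genes did not overlap. With a library left out it was 2 to 5, fewer libraries making separation easier. It was 5 without control replicate 2 (Klf2, Klf7, Klf9, Klf13 and Klf15, with 20.4% of all genes) and 4 without ethanol replicate 1 (Klf2, Klf9, Klf13 and Klf15, with 16.2% of all genes). It was 3 without control replicate 1 (17.1% of all genes), ethanol replicate 2 (14.3%) or ethanol replicate 3 (27.2%), and 2 without control replicate 3 (15.4%). The number higher after ethanol ran from 7 to 10, where 41.7% to 53.7% of all genes were higher. Klf9, Klf2 and Klf15 kept a log2 fold change above 0 in each of the 10 refits, at 0.43 to 0.58, 0.27 to 0.60 and 0.22 to 0.48. So did Klf13, Klf4 and Klf7, at 0.11 to 0.27, 0.04 to 0.25 and 0.03 to 0.14. Klf10, Klf6 and Klf16 crossed 0 (-0.16 to 0.10, -0.08 to 0.13 and -0.02 to 0.15), and Klf3 ran from -0.09 to 0.00. What caused these shifts, and the calls of the other tests, was not tested.

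Both groups carry replicate numbers 1 to 3, borne by different rats. Same-numbered libraries deviated from their group means with correlations of 0.0264, 0.388 and 0.211 (numbers 1, 2 and 3, over 14241 genes). Control replicates 2 and 3 correlated best with the ethanol library of the same number, and control replicate 1 with ethanol replicate 3 (0.305). These correlations do not settle whether the libraries are paired. The labels pair no animals, so the numbers are not taken as pairs. As a replicate block they left 0 genes with an adjusted p below 0.2, the smallest being 0.483 (0.818 without the block), and moved the log2 fold change of no Kruppel-like gene by more than its spread between libraries. Depth limits these genes little, the lowest count of any of the 10 in a library being 320 (Klf2).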

Other observations

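Other cell-type lists gave these values. Tmem119, a microglial gene, was at 19.2, 12.4 and 18.8 CPM in controls and 26.1, 23.9 and 25.2 CPM after ethanol, with log2FC 0.57 ± 0.16 (SE) and an edgeR quasi-likelihood adjusted p of 1.0. The groups did not overlap, while the microglial genes Csf1r and C1qa had log2 fold changes of 0.11 and 0.15 and the list of 6 a median of 0.03. Of 5 ependymal and ciliary genes tested, 5 had a log2 fold change below 0, with a median of -0.48, and 3 had an unadjusted p below 0.05 (2.57% of all genes were lower at that p). Tmem212 was at 3.98, 5.77 and 5.11 CPM in controls and 3.04, 3.40 and 2.58 CPM after ethanol, and Cfap126 at 4.77, 7.19 and 6.42 CPM and 2.65, 3.23 and 3.52 CPM. Both were lower in all ethanol libraries, with log2 fold changes of -0.72 and -0.97 (edgeR quasi-likelihood adjusted p of 0.850 and 0.818). Foxj1, the regulator of motile cilia, had log2FC -0.48 ± 0.20 (SE) and Rsph1 -0.29 (standard error 0.13).

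Of 6 choroid plexus genes tested, 6 had a log2 fold change below 0, with a median of -1.80, and for 3, Ttr, Kl and Kcnj13, the groups did not overlap (5.19% of all genes, lower). Kcnj13 was at 9.54, 18.2 and 16.7 CPM in controls and 1.74, 3.71 and 7.67 CPM after ethanol. Clic6 was at 11.3, 29.7 and 15 CPM and 1.37, 1.29 and 12.9 CPM. Astrocyte, oligodendrocyte, neuronal and amygdala lists had medians of 0.06, 0.18, 0.12 and 0.07. Groups did not overlap for 0 of their 24 tested genes, against 3.66% (higher) and 5.19% (lower) of all genes. Gfap and Aldoc had log2 fold changes of 0.29 and 0.06, Mbp 0.24, Snap25 and Slc17a7 0.12 and 0.18, and Ppp1r1b and Neurod6 0.34 and 0.07.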
